A study of Rattus norvegicus with 138 samples.

Results

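The basement membrane is the thin sheet of extracellular matrix that wraps every myofiber, capillary and Schwann cell of skeletal muscle. Laminins, which are trimers of an alpha, a beta and a gamma chain, form a first network at the cell surface, type IV collagen forms a second one, and nidogen and perlecan link them. Dystroglycan and integrins anchor the sheet to the cell, and muscle stem cells lie beneath it. The genes described here were chosen by name as its chains and linkers: Col4a1, Col4a2, Col4a5, Lama2, Lama4, Lamb1, Lamb2, Lamc1, Nid1 and Hspg2. Of these 10 genes, 4 have values among the 16181 gene symbols used: Col4a1, an alpha chain of type IV collagen, Lama4, the laminin alpha chain best known from vessels, Lamc1, the gamma chain of most laminins, and Lamb2, the beta chain of laminins of the synapse and of vessels. Col4a2, Col4a5, Lama2, Lamb1, Nid1 and Hspg2 were not analysed here, so the main laminin alpha chain of the myofiber is not among the values.

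RNA came from the tibialis anterior (TA) of inbred male Lewis rats of about 4 months. In operated rats, a biopsy punch that removed tissue from the middle of 1 TA made a volumetric muscle loss (VML) injury, which was left without repair or filled with a minced muscle graft cut from the rat's own excised tissue. Injured muscles were taken 3, 7, 14 and 28 days post injury (DPI), and the contralateral muscle is the uninjured TA of such rats. Control muscles, labelled Sham at day 0, are both TA muscles of 2 rats that were not operated on. Rats of both arms were also labelled as running or not, a condition on which the sources used here give no detail. Among non-running rats, the non-repaired arm held 3, 8, 4 and 4 injured muscles at 3, 7, 14 and 28 DPI and the graft arm 7, 8, 4 and 4. Contralateral muscles numbered 2, 4, 2 and 2 in the non-repaired arm and 2, 6, 2 and 2 in the graft arm. Running rats gave 8, 4, 4 and 2 non-repaired and 6, 4, 4 and 2 grafted injured muscles, and 2 contralateral muscles in each arm at 3, 7 and 14 DPI. Each injured muscle is from another rat, and 34 rats gave both muscles.

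Values are TPM, transcript abundances that scale a library to a fixed total and a gene to its length, so the reads behind a value in a library are unknown and counting error cannot be stated. Of 138 libraries, 13 with fewer than 7000 symbols above 1 TPM were left out (901 to 5712 such symbols, against 7866 to 10948 in the 125 kept), and 9 that could not be mapped to a group are in no comparison, which left 114 muscles of 78 rats. Control replicate 4 is the kept library with the fewest symbols above 1 TPM and stands apart from the other control muscles. The member changes, ratios and list counts against control muscle are given with and without it on deposited values. All control rats belong to another numbered series than the operated rats, so series and injury cannot be told apart against control muscle. In bulk tissue, fewer cells of a type and less RNA per cell cannot be told apart. The labelled tissue carries its markers: 8 myofiber genes such as Ckm and Acta1 summed to between 183900 and 240000 TPM in control muscle.

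Rat Col4a1 and Col4a2 are transcribed away from each other from a shared promoter, and its bases are shown because Col4a1 has the highest mean level of the 4 genes in all injured groups but 1. The sequences upstream of Lama4 and Lamc1, a laminin chain pair that was higher after injury together with Col4a1, are shown beside it. They are from RefSeq (build GRCr8, not the build behind the TPM values), run from 5′ to 3′ on the strand named, and capitals mark matches on either strand to GGGCGG (the GC box) or TATAAA (the TATA box).
Col4a1, the 76 bases between its start and that of Col4a2, chr16:84885521-84885596, plus strand: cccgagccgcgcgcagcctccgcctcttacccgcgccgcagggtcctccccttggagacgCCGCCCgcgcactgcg
Lama4, the 250 bases before its start, chr20:43946648-43946897, plus strand: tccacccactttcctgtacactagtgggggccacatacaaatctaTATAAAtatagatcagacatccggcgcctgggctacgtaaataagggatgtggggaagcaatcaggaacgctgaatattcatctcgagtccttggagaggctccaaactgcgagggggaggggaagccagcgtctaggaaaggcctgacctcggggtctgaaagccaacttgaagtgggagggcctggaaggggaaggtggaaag
Lamc1, the 250 bases before its start, chr13:68051987-68052236, minus strand: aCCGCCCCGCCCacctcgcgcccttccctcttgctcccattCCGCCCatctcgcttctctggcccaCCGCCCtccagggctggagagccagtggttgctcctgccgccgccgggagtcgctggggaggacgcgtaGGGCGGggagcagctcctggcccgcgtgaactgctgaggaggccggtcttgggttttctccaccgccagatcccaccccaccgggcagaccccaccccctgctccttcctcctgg

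The Lamc1 stretch holds 5 matches to GGGCGG, of which the first pair shares a base, and the Col4a1 to Col4a2 stretch holds 1, while the Lama4 stretch holds none and has 1 match to TATAAA. Of 33469 rat promoters in the same table, 30.5% hold GGGCGG and 12.9% hold TATAAA in the 250 bases before the start. CCAAT (in 34.0% of promoters) has 1 match in the 250 bases before Col4a1, outside the stretch shown, and none before Lama4 or Lamc1, and TGANTCA (in 6.34%) has none before any of the 3 genes. A match describes the letters only. The G and C content of the 3 stretches is 78.9%, 53.2% and 71.2% in the order shown, against a median of 51.2% over all promoters in the table.

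In control muscle Lamb2 had the highest level and Lama4 the lowest. Lamb2 was at 48.94, 52.75, 51.23 and 41.22 TPM in control replicates 1 to 4, a mean of 48.5 ± 5.1 (SD, n = 4). Lamc1 was at 18.75, 17.46, 16.22 and 10.93 TPM (mean 15.8 ± 3.43) and Col4a1 at 17.59, 18.02, 16.96 and 10.21 TPM (mean 15.7 ± 3.68), and these 2 genes did not differ beyond their spread. Lama4 was at 3.29, 2.81, 3.7 and 1.85 TPM (mean 2.91 ± 0.796). As deposited, replicate 4 was the lowest muscle for all 4 genes, and its endothelial marker sum was the lowest as well (72.2 TPM, against a control median of 149.1). The order Lamb2 first and Lama4 last also held in the mean of every contralateral group.

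**Figure D1:**
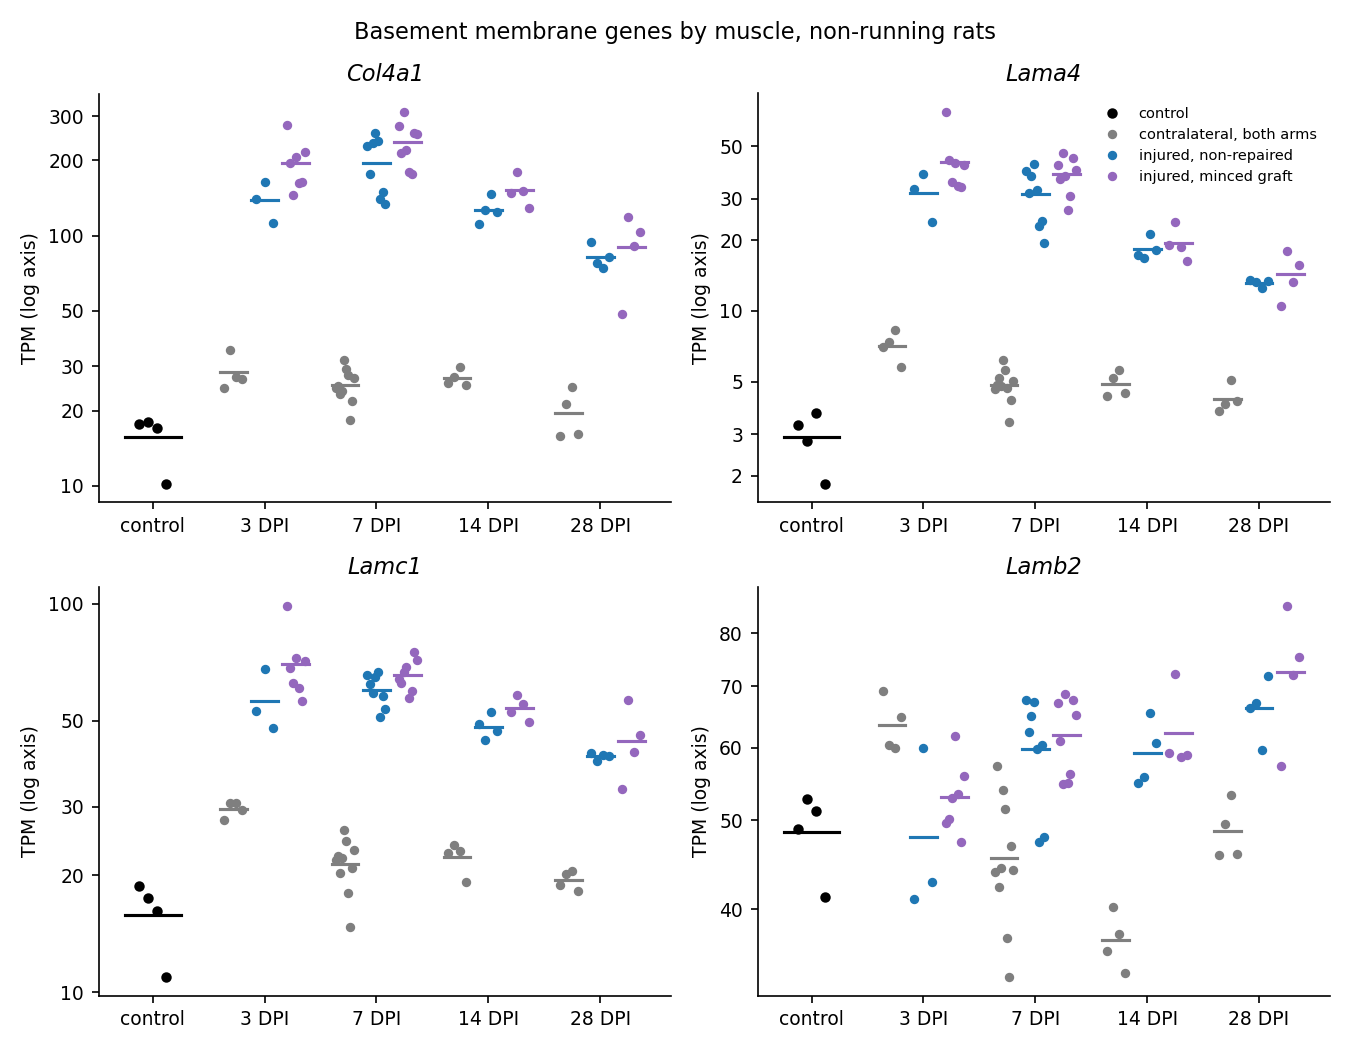
TPM of each gene in single muscles of non-running rats on a log axis, with a horizontal line at each group mean, for control muscle and for contralateral, injured non-repaired and injured grafted muscle at 3, 7, 14 and 28 DPI. The injured muscles sit above all control and contralateral muscles of the same day for Col4a1, Lama4 and Lamc1, while for Lamb2 they do so at 14 and 28 DPI and overlap them at 3 and 7 DPI.

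After VML, Col4a1, Lama4 and Lamc1 rose and Lamb2 did not pass the test. In non-repaired injured against control muscle, Col4a1 was 8.47, 11.6, 7.80 and 5.06 times higher at 3, 7, 14 and 28 DPI, Lama4 8.33, 8.13, 5.0 and 3.69 times and Lamc1 3.43, 3.68, 2.98 and 2.51 times, as folds of TPM + 1. A gene was called when its limma adjusted p was under 0.05 and its log2 fold change passed 1 in either direction, so 3 of the 4 genes were called up at each time point. The same rule called 48.3%, 45.6%, 25% and 21.1% of all 11328 genes up at 3, 7, 14 and 28 DPI, so the share of the 4 genes is read against a large background, most of all at the first 2 time points. The median of all genes was itself higher by 0.96, 0.92, 0.53 and 0.52 on the log2 scale. Dividing each muscle by a median-of-ratios size factor brought that median to 0.12, 0.11, 0.04 and 0.05, and the rescaled values are given beside the deposited ones for that reason. On the rescaled values 24.2%, 21.6%, 15.6% and 11.3% of all genes were called up and 16.6%, 14.0%, 5.83% and 3.12% down, against 4.24%, 2.42%, 0.547% and 0.212% down as deposited.

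Col4a1 had the largest fold of TPM + 1 of the 4 genes at 7, 14 and 28 DPI in both scalings. At 3 DPI its fold and that of Lama4 were within their errors of each other, and Lama4 came first on rescaled values. The Col4a1 level was 139.9, 164.1 and 112.6 TPM in the 3 non-repaired muscles at 3 DPI, between 134.3 and 256.8 TPM with a median of 202.0 in the 8 at 7 DPI, 110.9, 127.0, 146.2 and 124.2 TPM at 14 DPI, and 93.93, 77.89, 74.21 and 81.88 TPM at 28 DPI. Every one of these muscles was above the highest control muscle. The log2 fold change was 3.08 (SE 0.23, adjusted p = 8.1e-22, limma), 3.54 (SE 0.19, adjusted p = 3.9e-31), 2.96 (SE 0.21, adjusted p = 1.1e-21) and 2.34 (SE 0.21, adjusted p = 3.5e-16). Among all genes tested these changes stood at percentiles 91.1, 96.4, 97.7 and 97.2. Rescaled, they were 1.97, 2.49, 2.31 and 1.70, all still called, and without control replicate 4 they were 2.90, 3.36, 2.78 and 2.16.

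Lama4, which joins Lamc1 in laminins of the vessel wall, had the second largest fold at 7, 14 and 28 DPI. Its level was 32.8, 38.3 and 23.75 TPM at 3 DPI, 19.38 to 42.25 TPM with a median of 32.2 at 7 DPI, 17.21, 16.82, 21.2 and 18.21 TPM at 14 DPI, and 13.6, 13.27, 12.54 and 13.39 TPM at 28 DPI. All were above the control muscles, of which the highest had 3.7 TPM. The log2 fold change was 3.06 (SE 0.21, adjusted p = 1.6e-24, limma), 3.02 (SE 0.17, adjusted p = 4.5e-30), 2.33 (SE 0.19, adjusted p = 6.7e-19) and 1.88 (SE 0.19, adjusted p = 2.3e-14). Rescaled values were 2.09, 2.12, 1.80 and 1.37 and stayed called, and values without control replicate 4 were 2.91, 2.88, 2.18 and 1.74. Since 1 was added to each value, the change of so low a gene is understated.

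Lamc1 rose less than either. It was at 52.86, 68.05 and 47.97 TPM at 3 DPI, between 51.13 and 66.93 TPM with a median of 60.6 at 7 DPI, at 48.95, 44.55, 52.57 and 47.15 TPM at 14 DPI, and at 41.21, 39.38, 40.75 and 40.65 TPM at 28 DPI. The highest control muscle had 18.75 TPM, so the groups did not overlap. The log2 fold change was 1.78 (SE 0.14, adjusted p = 2.3e-20, limma), 1.88 (SE 0.11, adjusted p = 2.6e-27), 1.57 (SE 0.13, adjusted p = 1.9e-18) and 1.33 (SE 0.13, adjusted p = 1e-14). The call was lost at all 4 time points on rescaled values, where the change was 0.67, 0.83, 0.92 and 0.68 with adjusted p values from 1.4e-16 to 2.7e-09, short of the fold and not of the p. Without control replicate 4 it was 1.62, 1.72, 1.42 and 1.17 and called throughout.

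Lamb2 differed from the other 3 genes. It was at 41.08, 59.96 and 42.85 TPM at 3 DPI, between 47.39 and 67.58 TPM with a median of 61.5 at 7 DPI, at 54.91, 55.77, 65.41 and 60.69 TPM at 14 DPI, and at 66.35, 67.2, 59.67 and 71.93 TPM at 28 DPI. The injured muscles overlapped the control range of 41.22 to 52.75 TPM at 3 and 7 DPI and lay above it at 14 and 28 DPI. The log2 difference was −0.03 (95% interval −0.31 to 0.25), 0.29 (0.07 to 0.51), 0.28 (0.03 to 0.54) and 0.44 (0.19 to 0.70) as deposited, and −1.16, −0.79, −0.40 and −0.22 rescaled. Without control replicate 4 it was −0.11, 0.21, 0.21 and 0.37 as deposited, with no call. That muscle had the lowest size factor (0.38) and the highest rescaled Lamb2 of the control muscles (108.5, against a control mean of 83.11). It thus lowers the rescaled Lamb2 differences, which were not computed without it. The rescaled value at 3 DPI was called down (limma adjusted p = 2.2e-15), so the direction of Lamb2 depends on the scaling, and in both scalings its value was the lowest of the 4. As deposited it was at percentiles 15.7, 22.1, 33.2 and 44.2 of all genes tested.

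**Figure D2:**
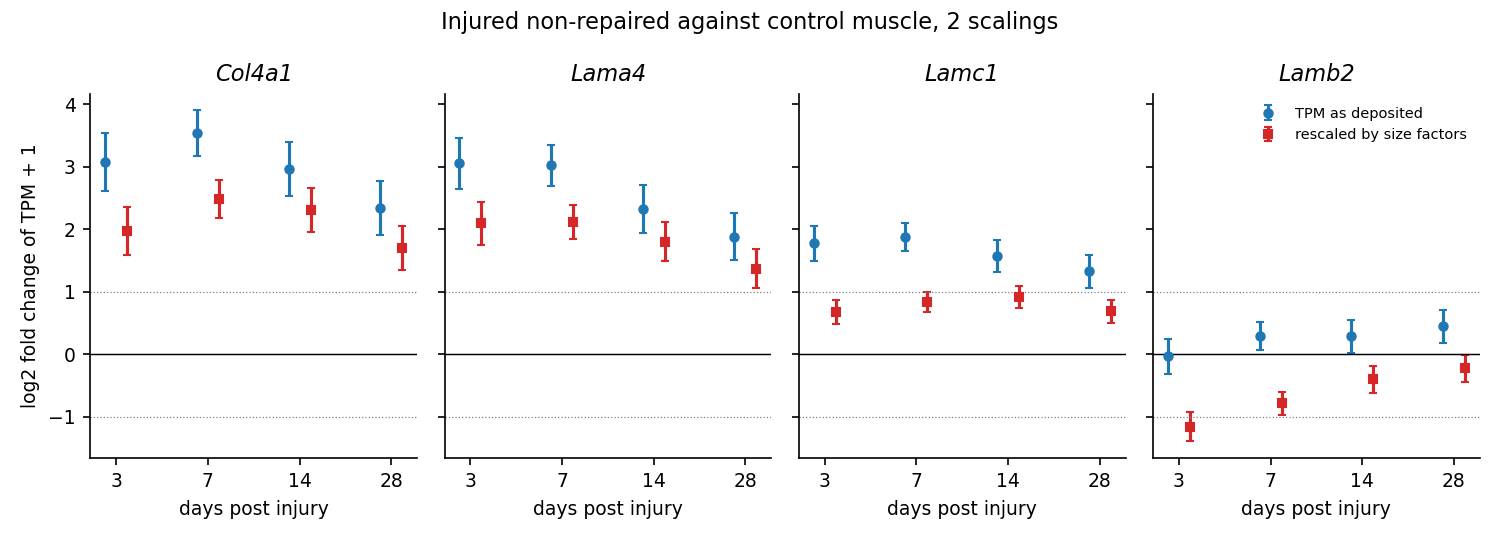
log2 fold change of TPM + 1 in injured non-repaired against control muscle by days post injury, as deposited (circles) and rescaled by size factors (squares), with 95% intervals from limma and dotted lines at the fold threshold of 1. Rescaled Col4a1 and Lama4 stay above the threshold, Lamc1 lies between 0.67 and 0.92, and Lamb2 turns negative at 7, 14 and 28 DPI.

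A ratio of 2 genes within a muscle does not depend on how that muscle was scaled. The laminin gamma chain Lamc1 stood at a log2 ratio of −1.64 ± 0.22 (SD, n = 4) to the beta chain Lamb2 in control muscle, and at 0.24 ± 0.11 (n = 3), 0.02 ± 0.11 (n = 8), −0.29 ± 0.09 (n = 4) and −0.71 ± 0.12 (n = 4) in injured muscle at 3, 7, 14 and 28 DPI. The ratio was thus 3.67, 3.15, 2.54 and 1.91 times its control value, with no overlap between control and injured muscles at any time point. Among all genes tested, Lamb2 stood at percentiles 15.7, 22.1, 33.2 and 44.2 of the log2 fold changes against control muscle. Most genes thus rose relative to it, so a rise against Lamb2 is not particular to these members. The gene pairs were chosen after the data were seen, and pairs with other genes were not tested. Of the 24 tests over 6 gene pairs and 4 time points, 21 had an adjusted p under 0.05 (exact two-sided permutation tests over muscles, adjusted over the 24). For these 21 the p is 0.0286 at 3, 14 and 28 DPI and 0.00202 at 7 DPI, the smallest these group sizes allow, and the adjusted p is 0.0327 and 0.0097. These tests count the 4 control muscles as separate although they are of 2 rats. With control muscles averaged per rat the smallest p the exact test allows is 0.1, 0.0222, 0.0667 and 0.0667 at 3, 7, 14 and 28 DPI, and 0 of 24 tests had an adjusted p under 0.05, the lowest being 0.1. Adjusted over the 24 tests, these smallest values cannot reach 0.05 at any time point, so that count was fixed by the design. The Lamc1 to Lamb2 change was then 1.86, 1.64, 1.34 and 0.92 on the log2 scale, against 1.88, 1.65, 1.35 and 0.93 over the 4 muscles. Without control replicate 4 it was 1.78, 1.56, 1.25 and 0.84. Without it 16 of the 24 tests passed. None passed at 3 DPI, where 3 against 3 muscles cannot reach the threshold, so the loss there was set by the group sizes. Set against same-day contralateral muscles of both arms, some of them from the injured rats, 23 of 24 passed.

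Lama4 to Lamb2 moved most at 3 DPI. Its log2 ratio was −4.10 ± 0.32 in control muscle and −0.61 ± 0.27, −0.97 ± 0.24, −1.69 ± 0.05 and −2.33 ± 0.08 in injured muscle, a rise of 11.2, 8.74, 5.30 and 3.42 times. Col4a1 to Lamb2 went from −1.66 ± 0.24 to 1.54 ± 0.20, 1.67 ± 0.25, 1.10 ± 0.09 and 0.30 ± 0.14, or 9.17, 10.1, 6.76 and 3.90 times. Both ratios remained apart from control muscle at 28 DPI in every muscle. Col4a1 and Lama4 changed against Lamc1 as well, by 1.32, 1.68, 1.41 and 1.03 on the log2 scale for Col4a1 and by 1.62, 1.47, 1.06 and 0.84 for Lama4. Against each other, the log2 change of Col4a1 to Lama4 was −0.29, 0.20, 0.35 and 0.19, with an adjusted p of 0.0894, 0.0639, 0.0327 and 0.143, so that only the 14 DPI value passed. This ratio depended on the reference and on the added 1: against contralateral muscle it was 0.15, 0.26 and 0.44 at 3, 7 and 28 DPI, and with TPM + 1 it was 0.02, 0.52 and 0.46, so that the 3 DPI sign turned and the 7 and 28 DPI values passed in both. Without control replicate 4 the Lama4 to Lamb2 change was 3.37, 3.00, 2.28 and 1.65 and the Col4a1 to Lamb2 change 3.08, 3.21, 2.64 and 1.84. The changes against Lamc1 were then 1.30, 1.65, 1.39 and 1.01 for Col4a1 and 1.58, 1.44, 1.03 and 0.81 for Lama4, and Col4a1 to Lama4 stood at −0.29, 0.21, 0.36 and 0.20.

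**Figure D3:**
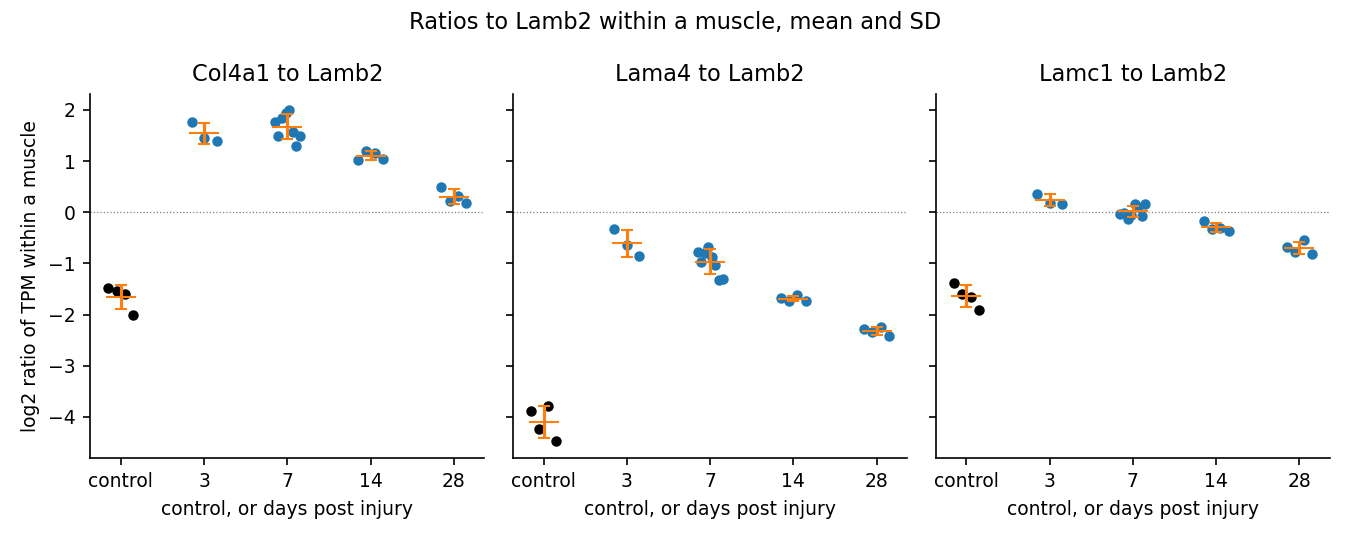
log2 ratio of Col4a1, Lama4 and Lamc1 to Lamb2 within single muscles, for control (black) and injured non-repaired muscle at 3, 7, 14 and 28 DPI (blue), with mean and SD in orange. Control muscles sit lowest in each panel, and the injured means come down from 7 to 28 DPI without reaching them.

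The order of the levels changed with these ratios. TPM is per length, so levels of different genes can be set side by side. In all injured groups at 3 and 7 DPI, of both arms, running or not, the mean order was Col4a1, Lamc1, Lamb2 and Lama4, and at 14 and 28 DPI Lamb2 came before Lamc1. The group means of Lamc1 and Lamb2 did not differ beyond the spread between non-repaired muscles at 3 and 7 DPI (56.3 ± 10.5 and 48.0 ± 10.4 TPM at 3 DPI, 60.1 ± 5.79 and 59.7 ± 7.98 TPM at 7 DPI). Within a muscle, Lamc1 was above Lamb2 in each of these muscles at 3 DPI (log2 ratio 0.16 to 0.36), and the ratio lay between −0.14 and 0.16 at 7 DPI. Running grafted muscle at 28 DPI was the exception, with Lamb2 at 60.4 TPM and Col4a1 at 60.3 TPM in 2 muscles.

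Contralateral muscle offers a reference from the same series of rats, and from the same rat in 34 pairs. Over all arms, Col4a1 was between 48.67 and 392.8 TPM in the 76 injured muscles and between 15.84 and 44.45 TPM in the 34 contralateral ones, and Lamc1 between 32.38 and 99.04 TPM against 14.67 to 31.94 TPM, with no overlap. Lama4 was between 10.5 and 69.88 TPM in injured muscle against 3.39 to 10.75 TPM, so that its ranges met at the edge, with 28 DPI injured muscles at the low end. Within a rat, these 3 genes were higher in the injured than in the contralateral muscle in 34 of 34 rats. The median log2 ratio was 2.74 for Col4a1 (1.62 to 3.48), 2.36 for Lama4 (1.42 to 3.16) and 1.29 for Lamc1 (0.78 to 1.93). Lamb2 was higher in the injured muscle in 2 of 8 rats at 3 DPI and in 14 of 14, 8 of 8 and 4 of 4 rats at 7, 14 and 28 DPI, with median log2 ratios of −0.16, 0.37, 0.63 and 0.44. These ranges and rat counts are of deposited values and were not taken over all genes. In the limma fit of non-running rats the median of all genes was itself higher by 0.60, 0.87, 0.54 and 0.43. Rescaled, Lamb2 in that fit was at −0.97, −0.56, 0.03 and −0.03, so its rise from 7 DPI on depends on the scaling.

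In the limma fit of both arms of non-running rats, the same 3 genes were called up against contralateral muscle at each time point, where 34.8%, 43.8%, 23.4% and 16% of all genes were called up and 6.39%, 2.62%, 0.344% and 0.265% down. Col4a1 was higher by 2.48 (SE 0.18), 3.03 (SE 0.12), 2.31 (SE 0.19) and 2.07 (SE 0.19) on the log2 scale, and Lama4 by 2.20 (SE 0.16), 2.60 (SE 0.11), 1.75 (SE 0.17) and 1.49 (SE 0.17). Both stayed called on rescaled values (1.85, 2.03, 1.64 and 1.56 for Col4a1, 1.59, 1.68, 1.16 and 1.04 for Lama4), where 21%, 19.7%, 11.8% and 8.47% of all genes were called up and 14.3%, 13.1%, 4.99% and 2.18% down. Lamc1 was higher by 1.04 (SE 0.11), 1.55 (SE 0.08), 1.16 (SE 0.11) and 1.07 (SE 0.11), and its rescaled values of 0.41, 0.55, 0.50 and 0.56 were not called. At 3 DPI the Lamc1 call was also lost in the non-repaired arm alone (0.87), without injured grafted replicate 1 (0.999) and without injured non-repaired replicate 2 (0.971). Lamb2 differed by −0.34, 0.44, 0.70 and 0.50 as deposited and by −0.97, −0.56, 0.03 and −0.03 rescaled, with no call in either.

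In contralateral against control muscle, 1 member was called at 1 time point. At 3 DPI, Lama4 rose (5.76, 8.27, 7.04 and 7.36 TPM in the 4 non-running muscles, log2 fold change 1.07, SE 0.19, limma adjusted p = 2.9e-06), and 7.09% of all genes were called up and 0.0618% down. That call was lost on rescaled values (0.63), without control replicate 4 (0.92) and without contralateral non-repaired replicate 1 (0.95). Col4a1 (0.84), Lamc1 (0.89) and Lamb2 (0.39, but −0.19 rescaled) did not reach the fold. At 7, 14 and 28 DPI no member was called, and 0.9%, 0.953% and 0.494% of all genes were called up and 0.141%, 0.0794% and 0.0177% down. Col4a1 stood at 0.66, 0.78 and 0.31, Lama4 at 0.57, 0.61 and 0.44, Lamc1 at 0.40, 0.49 and 0.30 and Lamb2 at −0.13, −0.38 and 0.01 (−0.25, −0.46 and −0.17 rescaled), all on the log2 scale. Without control replicate 4 Col4a1 was at 0.66, 0.48, 0.60 and 0.13 at 3, 7, 14 and 28 DPI, Lamc1 at 0.73, 0.24, 0.33 and 0.15 and Lamb2 at 0.31, −0.20, −0.46 and −0.07, and Lama4 at 0.43, 0.47 and 0.30 from 7 DPI on. At an unadjusted p under 0.05, all members but Lamb2 passed at 7 DPI, all 4 at 14 DPI, and Lama4 and Lamc1 at 28 DPI. Fibroblast markers were called up in the same comparison (8, 5, 6 and 3 of 8 at 3, 7, 14 and 28 DPI, and 8, 2, 3 and 0 without control replicate 4), as were leukocyte markers (6, 0, 2 and 0 of 7, and 6, 0, 0 and 0 without it), and their part in the member values was not tested.

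Between consecutive time points of non-repaired injured muscle, no member passed both thresholds, and 7 of 12 tests had an unadjusted p under 0.05. The rule called 2.0%, 0.724% and 0.106% of all genes up and 5.35%, 6.1% and 0.353% down from 3 to 7, 7 to 14 and 14 to 28 DPI. On rescaled values it called 2.07%, 2.56% and 0.124% up and 4.46%, 1.64% and 0.538% down, so the balance from 7 to 14 DPI turned. From 3 to 7 DPI Col4a1 was at 0.46 (limma adjusted p = 0.068), and at 0.51 rescaled (adjusted p = 0.011). From 7 to 14 DPI, Col4a1 was lower by 0.57 (a difference of −0.57, limma adjusted p = 0.0048), Lama4 by 0.70 (−0.70, adjusted p = 0.00017) and Lamc1 by 0.31 (−0.31, adjusted p = 0.014), short of the fold, while the median of all genes was at −0.40. Rescaled, these differences were −0.18, −0.32 and 0.08, so that Lamc1 turned. From 14 to 28 DPI Col4a1 was at −0.63 (adjusted p = 0.13, and −0.61 rescaled with adjusted p = 0.036) and Lama4 at −0.44 (adjusted p = 0.27), with the median of all genes at −0.01. Lamb2 was at 0.32 from 3 to 7 DPI (adjusted p = 0.034), −0.01 from 7 to 14 DPI (0.39 rescaled) and 0.16 from 14 to 28 DPI.

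Minced grafts made no member pass the test against non-repaired muscle at any time point. The rule called 0, 10, 3 and 0 of all 11328 genes up (0.0%, 0.0883%, 0.0265% and 0.0%) and 1, 0, 0 and 0 down (0.00883%, 0.0%, 0.0% and 0.0%) at 3, 7, 14 and 28 DPI. On rescaled values it called 0, 1, 2 and 0 up and 1, 0, 0 and 0 down. At 3 DPI the grafted muscles ranged from 145.7 to 277.7 TPM for Col4a1 (median 195.7), from 33.67 to 69.88 TPM for Lama4 (median 41.8) and from 56.38 to 99.04 TPM for Lamc1 (median 68.4), and all 3 ranges overlap those of non-repaired muscle. The log2 difference was 0.48 (95% interval 0.06 to 0.89) for Col4a1, 0.41 (0.04 to 0.78) for Lama4, 0.31 (0.05 to 0.56) for Lamc1 and 0.16 (−0.09 to 0.41) for Lamb2, with limma adjusted p values from 0.24 to 0.48. Unadjusted p values of the first 3 were 0.025, 0.029 and 0.019, and 4 of the 16 graft tests were under 0.05, the last being Lama4 at 7 DPI (0.30, adjusted p = 0.14). Rescaled, the 3 DPI differences were 0.31, 0.25, 0.14 and −0.003. The summed endothelial markers at 3 DPI were between 432.2 and 545.5 TPM in grafted and between 290.6 and 429.1 TPM in non-repaired muscle. Median sums were also higher in grafted muscle for mural (326.4 against 254.5 TPM), fibroblast (4744 against 4347 TPM), leukocyte (1191 against 884.4 TPM) and adipocyte markers (1040 against 746.9 TPM). They were lower for Schwann cell (138.4 against 142.6 TPM) and myofiber markers (38510 against 46840 TPM). The part of each cell type was not tested. At 7, 14 and 28 DPI the 4 genes differed by 0.06 to 0.30, 0.07 to 0.25 and 0.07 to 0.12, and no interval reached above 0.68. Rescaled, the differences ran from −0.06 to 0.18, −0.06 to 0.12 and −0.01 to 0.04, with Lamb2 at 7 DPI, Lama4 and Lamb2 at 14 DPI and Col4a1 at 28 DPI turned to negative.

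As deposited, the graft arm was uneven at 28 DPI. Col4a1 was at 48.67, 118.4, 90.89 and 103.7 TPM in the 4 grafted muscles, against 74.21 to 93.93 TPM in the non-repaired ones. Lamc1 (33.36, 56.47, 41.66 and 45.96 TPM), Lama4 (10.53, 17.92, 13.31 and 15.69 TPM) and Lamb2 (57.35, 85.76, 72.04 and 75.4 TPM) had their lowest and highest values in the same 2 muscles. The SD of Lamc1 was 9.62 TPM with the graft and 0.784 TPM without, as deposited. The size factors of those 2 muscles were 0.893 and 1.181. Rescaled, Lamc1 ran from 37.36 to 47.82 with the graft and from 41.56 to 45.33 without. Rescaled Lamb2 ran from 64.22 to 76.1 against 61.89 to 73.53, Col4a1 from 54.5 to 103.7 against 76.97 to 103.3, and Lama4 from 11.79 to 15.7 against 13.01 to 14.96. The difference in spread and the part of library scaling in it were not tested.

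No member passed the test between running and non-running rats, with injured muscles of both arms averaged. The rule called 0.0% of all genes up at each time point and 0.0177%, 0.0%, 0.0% and 0.309% down at 3, 7, 14 and 28 DPI, and none of the 16 member tests had an unadjusted p under 0.05. The log2 differences lay between −0.10 and 0.25 at 3 DPI, between −0.05 and 0.24 at 7 DPI, between −0.08 and 0.12 at 14 DPI and between −0.33 and −0.11 at 28 DPI. The 95% intervals reached from −0.70 to 0.52 over all time points, so differences within that range remain possible. The muscle with the highest Col4a1 of all, at 392.8 TPM, was a running non-repaired muscle at 7 DPI, with the other 3 of its group at 226.5, 172.3 and 229.3 TPM. At 28 DPI only 2 running muscles an arm could be used, with Col4a1 at 85.14 and 63.7 TPM without and at 68.23 and 52.43 TPM with the graft.

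Whether the injury effect differed with the graft (16 tests) or with running (12 tests at 3, 7 and 14 DPI) was tested as an interaction in the same model. Over these 28 tests, the difference of the injured to contralateral change lay between −0.21 and 0.36 on the log2 scale, and none was called (lowest limma adjusted p 0.413, 1 unadjusted p under 0.05). That value was Lamb2 at 3 DPI, 0.34 (95% interval 0.04 to 0.65) higher in running rats.

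**Figure D4:**
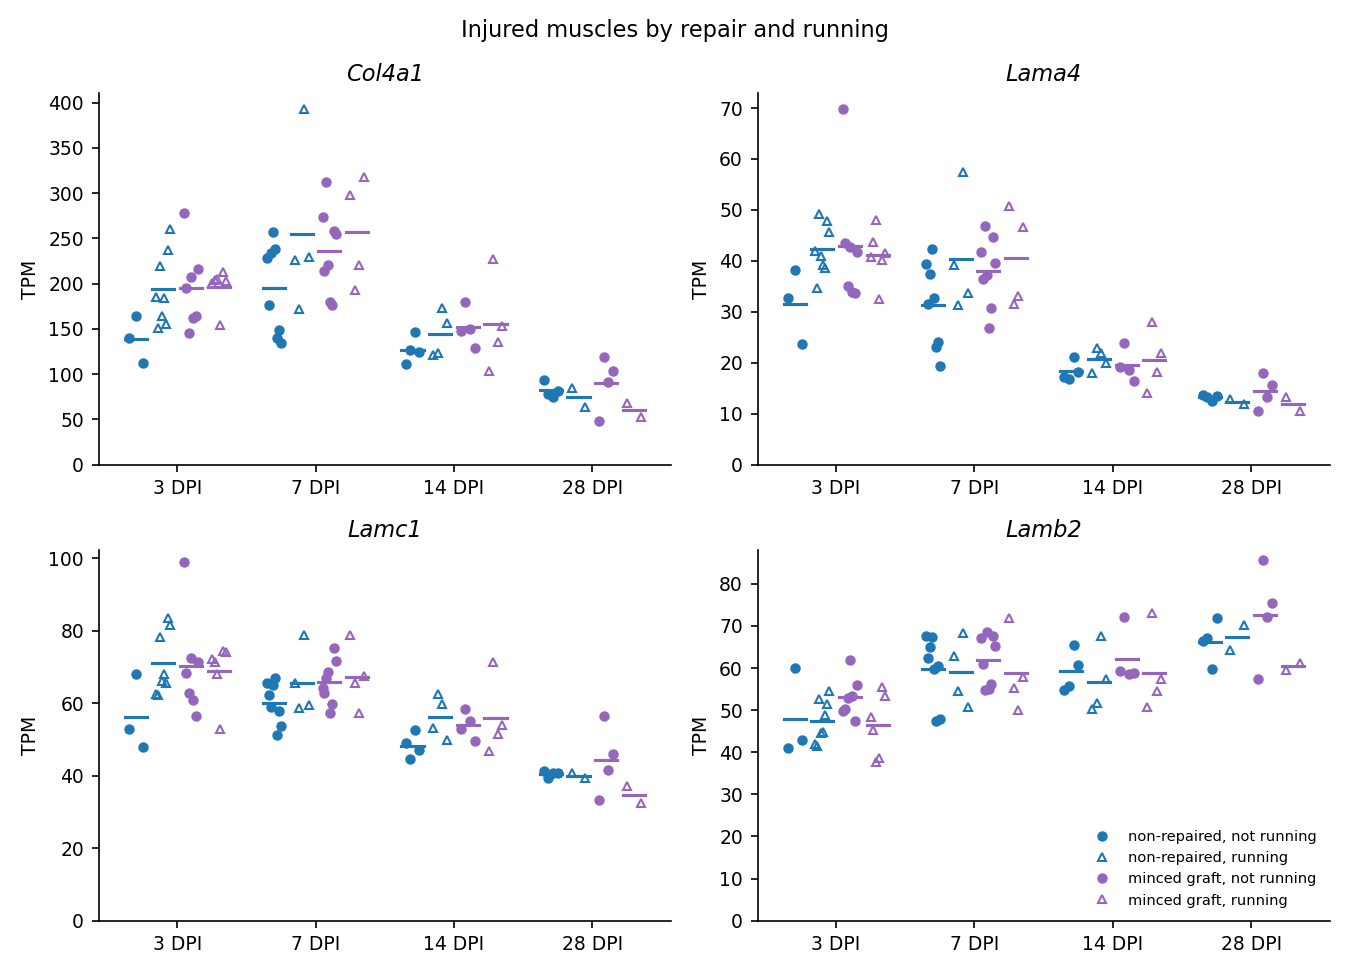
TPM of each gene in single injured muscles by time point, for non-repaired (blue) and grafted (purple) muscle of non-running (filled circles) and running rats (open triangles), with lines at group means. At 3, 7 and 14 DPI the 4 groups overlap for each gene, and at 28 DPI the 2 running grafted muscles have Col4a1 at 68.23 and 52.43 TPM, below all non-running non-repaired muscles.

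The other basement membrane genes were taken from 3 lists written from known function. Their counts are read against the 48.3%, 45.6%, 25% and 21.1% of all genes called up as deposited and the 24.2%, 21.6%, 15.6% and 11.3% rescaled. Without control replicate 4 the first shares were 43.4%, 39.8%, 21.1% and 16.5%. Of 24 further components, 20 had values and 16 were high enough to be tested. Against control muscle 12, 13, 12 and 12 of them were called up at 3, 7, 14 and 28 DPI and none down, with a median log2 fold change of 2.0, 2.76, 1.99 and 1.78, and 8, 9, 10 and 11 were called up on rescaled values and 11, 13, 11 and 11 without control replicate 4. Fn1, fibronectin, went from 8.37 ± 3.28 TPM in control muscle (n = 4) to 385.1 ± 117.4 (n = 3), 488.2 ± 191.2 (n = 8), 209.1 ± 38.9 (n = 4) and 100.4 ± 24.6 TPM (n = 4), a log2 fold change of 5.41, 5.69, 4.56 and 3.5. Sparc, a collagen-binding matricellular protein, was second highest from 7 DPI on, at 3901 ± 1381 TPM at 7 DPI against 168.3 ± 25.6 TPM in control muscle. Col18a1, the collagen of endostatin, was second highest at 3 DPI (3.75). The laminin chain Lamb3, known from skin, was the opposite case. It was at 1.63 ± 0.97 TPM in control muscle with a log2 difference from −0.17 to 0.37 and no call. Col4a3, a type IV collagen chain of kidney and lung, was at 0.12, 0.19 and 0.46 at 3, 7 and 14 DPI, not called.

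Of the 12 receptors listed, 10 were tested, and 7, 8, 3 and 3 were called up and 0, 1, 0 and 0 down, with medians of 1.17, 1.13, 0.74 and 0.79. On rescaled values 2, 2, 1 and 2 were called up and 1 down at each time point, and without control replicate 4, 5, 5, 2 and 2 up and 1, 1, 0 and 0 down. As a share of the 10 genes, the deposited counts at 14 and 28 DPI were near that of all genes, and the rescaled counts were below it at 3, 7 and 14 DPI and at 2 of 10 against 11.3% at 28 DPI. Itga7, the laminin-binding integrin alpha chain of muscle, had the largest change at 3 DPI (2.88), and Cd151, a tetraspanin bound to laminin-binding integrins, from 7 DPI on (2.48, 1.72 and 1.72). Itgb1 was second at 7 and 14 DPI (1.88 and 1.25) and Itgb4 at 28 DPI (1.60). Dag1, dystroglycan, was at 0.52, 0.58, 0.48 and 0.44 and not called. The gene called down was Sgcb, a sarcoglycan of the same complex, at 57.4 ± 6.19 TPM at 7 DPI against 143.0 ± 34.8 TPM in control muscle (log2 fold change −1.27).

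All 20 genes of assembly and turnover were tested, and 15, 14, 10 and 9 were called up and none down, with medians of 2.49, 2.43, 1.02 and 0.95 (13, 11, 8 and 7 up and 2, 0, 0 and 0 down rescaled, and 15, 14, 9 and 8 up without control replicate 4). The matrix proteases Mmp14 (5.20, 6.53, 5.37 and 3.97) and Mmp2 led the list from 7 DPI on, and Serpinh1, the collagen chaperone, was second at 3 DPI (4.68, from 24.7 ± 6.61 to 653.3 ± 170.2 TPM). Large, a glycosyltransferase that lets dystroglycan bind laminin, was at 0.08 at 3 DPI and not called as deposited, but called down on rescaled values (−1.01). P4ha1, a prolyl hydroxylase subunit, was lowest at 14 and 28 DPI (0.02 and −0.07).

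**Figure D5:**
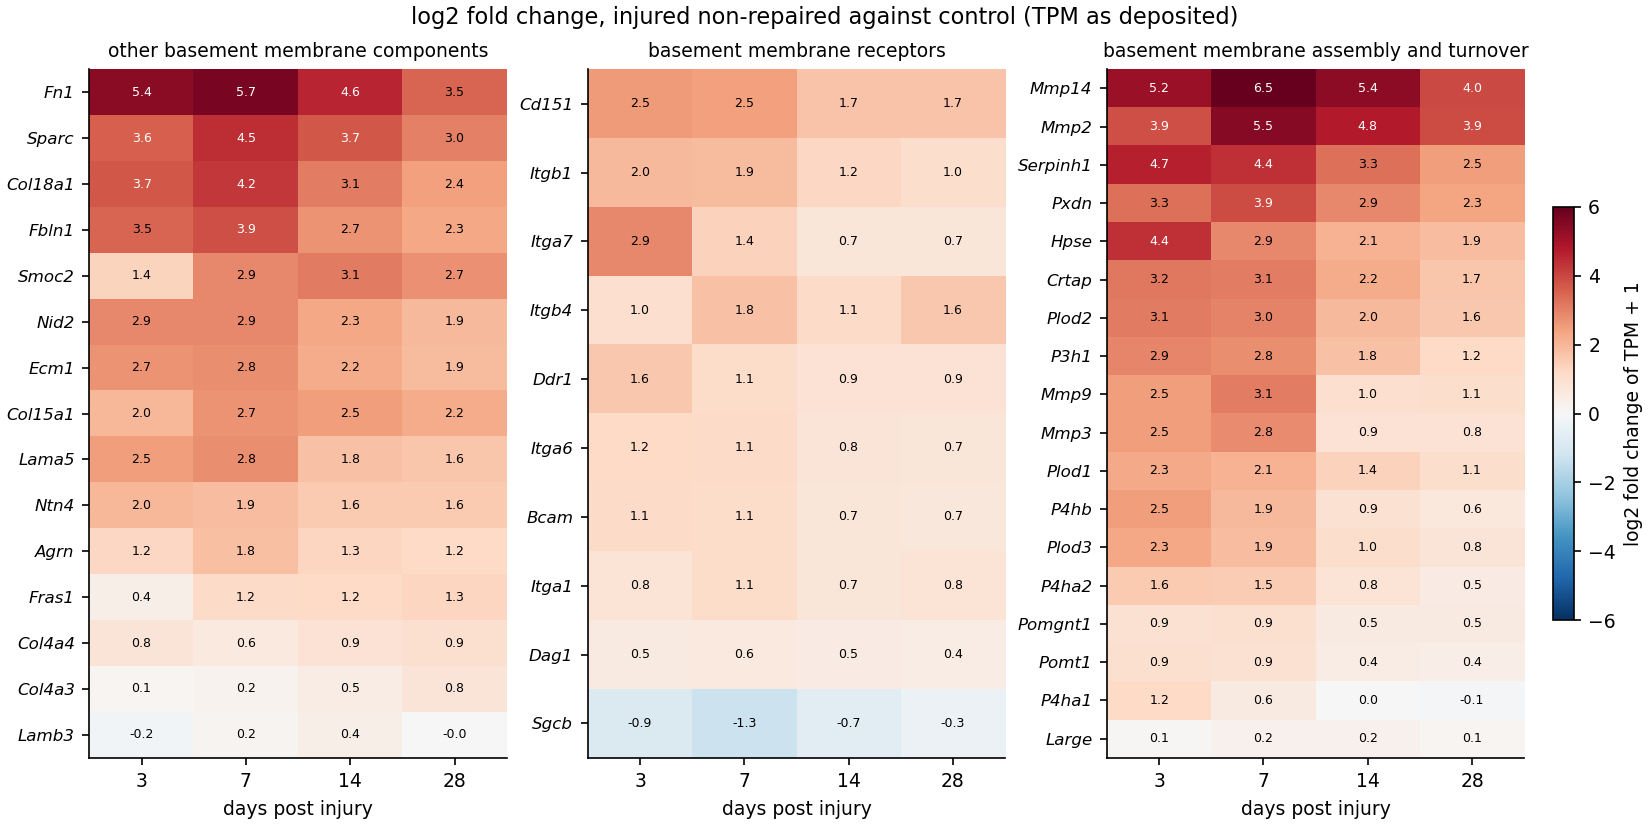
log2 fold change of TPM + 1 as deposited in injured non-repaired against control muscle at 3, 7, 14 and 28 DPI, for tested genes of 3 lists, each sorted by its mean over time points, with the value printed in each cell. Red cells are higher and blue cells lower in injured muscle, and Fn1, Cd151 and Mmp14 head the lists.

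Markers of the cells that could carry these transcripts were counted in the same comparison, to be read against the same shares of all genes as the lists above. Of 10 endothelial markers, 7, 9, 5 and 3 were called up as deposited, 1, 0, 0 and 0 rescaled and 4, 9, 3 and 0 without control replicate 4. The rescaled share was below that of all genes at each time point, and the deposited share was near it at 28 DPI. Their sum was between 72.2 and 164.4 TPM in control muscle against 290.6 to 429.1, 297.2 to 516.9, 252.4 to 315.6 and 246.1 to 265.0 TPM in injured muscle. Of 7 mural cell markers, 3, 5, 3 and 3 were called up as deposited (3, 5, 3 and 2 without control replicate 4), and 1, 2, 1 and 1 up and 2, 0, 0 and 0 down rescaled. The share was below that of all genes at 3 DPI in both scalings and at 14 DPI rescaled. Their sums were 84.0 to 194.8 TPM in control and 182.9 to 493.5 TPM over the injured groups. All 8 fibroblast and fibroadipogenic markers were called up at every time point, in both scalings and without control replicate 4, from sums of 58.3 to 200 TPM to sums between 1546 and 11660 TPM. Of 7 Schwann cell markers tested, 5, 5, 4 and 5 were called up (3, 4, 2 and 3 rescaled, 4, 4, 4 and 3 without control replicate 4), and 7 of 7 leukocyte markers at every time point in each of these settings (sums of 7.63 to 12.8 TPM in control and 61.4 to 1166 TPM in injured muscle). Adipocyte markers were called up for 1, 1, 1 and 5 of 5 (0, 0, 0 and 4 rescaled, 1, 0, 0 and 4 without control replicate 4), a share below that of all genes at 3, 7 and 14 DPI. Of 8 myofiber markers, 8, 6, 2 and 0 were called down as deposited, 8, 8, 4 and 5 rescaled and 8, 6, 1 and 0 without control replicate 4. Of all genes, 4.24%, 2.42%, 0.547% and 0.212% were called down as deposited and 16.6%, 14.0%, 5.83% and 3.12% rescaled. The myofiber sums were as low as 35240 TPM at 3 DPI and 50370 TPM at 7 DPI, and since the TPM of a library add up to a fixed total, the deposited values of other genes are relative to that sum. No marker was at 0 in all muscles of a group. The part of each cell type in the member values was not tested.

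Across all 114 muscles, Pearson's r of log2(TPM + 1) was 0.978 between Col4a1 and Lama4, 0.974 between Col4a1 and Lamc1 and 0.977 between Lama4 and Lamc1, while r of these genes with Lamb2 was 0.468, 0.402 and 0.475. These muscles share injury states and library scaling, so the values are descriptions. The genes most like the mean of the 4 were Plcg1 (0.982), Phldb1 (0.98), Sept8 (0.98), Pkd2 (0.977) and Adgrl1 (0.977). Pxdn, the peroxidase that cross-links type IV collagen, was nearest to Col4a1 (0.991), ahead of the fibrillar collagens Col5a2 and Col5a1 (0.99 each). Lama4 was nearest to Sec24d (0.994), Serpinh1 (0.993) and Fyn (0.993), and Lamc1 to Fgfr1 (0.982), Sept8 (0.981) and Frmd6 (0.978). Lamb2 had no neighbour as close, with the smooth muscle myosin Myh11 at 0.85 and Plcb4 and Mcf2l at 0.835.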

How the data were processed

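TA muscle RNA was quantified by the authors with Kallisto against the rat genome (build 6.0), and the deposited values are TPM per gene symbol, used as deposited, with the read depth of single libraries unknown (the study's methods give an average and a minimum only). The authors tested gene counts with DESeq2, and those counts were not used here. Repeat libraries of a muscle were averaged, and 13 libraries with fewer than 7000 symbols above 1 TPM were left out. Genes entered the test when the mean of any of the 31 groups was above 1 TPM. Groups were compared on log2(TPM + 1) with limma 3.58.1 in R 4.3.3, with an intensity trend, in 1 model with 83 residual degrees of freedom. A gene was called at a Benjamini-Hochberg adjusted p under 0.05 over 11328 genes with a log2 fold change beyond 1. Muscles of the same rat are paired by animal. The correlation of their deviations from the group means averaged 0.072 over 36 pairs (−0.641 to 0.358, above 0.1 in 15), and a replicate block on the rat (statmod 1.5.0) was fitted as an alternative.

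The planned ratios between subunits needed genes that had no values, so the 6 ratios among the 4 measured genes, tested by exact permutation, were chosen after the data were seen. The members and lists were chosen with earlier results of these data known. Besides the members, the text names from each list the 2 highest and 2 lowest genes against control muscle at each time point, and the genes most correlated with the members. A few genes of the lists enter the counts and medians but are not reported here by name or in the plot of the lists. Rescaled values are TPM divided by median-of-ratios size factors (0.38 to 1.55). Other alternatives were no filter, a pseudocount of 0.1, all libraries kept, compared groups alone, the non-repaired arm alone, control muscles averaged per rat, the adjusted p alone, and each muscle left out in turn. The code was tested on simulated data. Python 3.11.15 was used for tables (pandas 2.3.3), permutation tests (scipy 1.17.1), arrays (numpy 2.4.6) and figures (matplotlib 3.10.9).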

Additional observations from a re-analysis of the deposited data

Results flagged for a closer look

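In groups of 4 to 10 muscles, 64 tests of the highest or lowest muscle by Dixon's limits found 6 values far from the others, where chance gives about 1 in 20 groups. Col4a1 was lowest in control replicate 4 (10.21 TPM). In grafted non-running muscle at 3 DPI, 1 muscle held the highest Lama4 (69.88 TPM) and the highest Lamc1 (99.04 TPM), and in grafted running muscle at 3 DPI 1 muscle held the lowest Col4a1 (154.3 TPM) and the lowest Lamc1 (52.81 TPM). Lamb2 was highest at 72.2 TPM in 1 grafted non-running muscle at 14 DPI. No difference of the injury effect was called in 16 interaction tests of graft against non-repaired muscle or in 12 of running against non-running rats.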

How the results depend on the processing

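The number of members called was within 1.5 times its value for all 23 comparisons with no filter, a pseudocount of 0.1, all libraries kept, the compared groups fitted alone, for the 8 that use control muscle with control muscles averaged per rat, and for all 23 with the animal as a replicate block (within-rat correlation 0.026), which changed no call: with the block, 3 members were still called for injured against control at 3 DPI. For contralateral against control at 3 DPI the count was 1, fell to 0 with size factors, was 4 by the adjusted p alone, and was 0 to 1 with each muscle left out (0 without control replicate 4 or contralateral non-repaired replicate 1). By the adjusted p alone it was 3 in place of 0 for contralateral against control at 7 and at 14 DPI, 1 for injured 7 against 3 DPI and 3 for 14 against 7 DPI. Size factors reversed Lamb2: for injured against control −0.79, −0.40 and −0.22 at 7, 14 and 28 DPI, for injured against contralateral −0.56 and −0.029 at 7 and 28 DPI, and for contralateral against control −0.19 and −0.17 at 3 and 28 DPI. With all libraries kept, Lamb2 for injured against control at 7 DPI was −0.059, Lamb2 for injured against contralateral at 7 DPI was called at 1.02, and Lamc1 for contralateral against control at 7 DPI was −0.16. Leaving out each muscle in turn gave Lamb2 values from −0.199 to 0.068 for injured against control at 3 DPI and from −0.067 to 0.06 for contralateral against control at 28 DPI, so its sign rested on single muscles. The Col4a1 to Lama4 ratio at 3 DPI was 0.15 against contralateral muscle and 0.024 with TPM + 1, settings added after the data were seen. It passed at 7 DPI (0.26 and 0.52) and at 28 DPI (0.44 and 0.46) in both. With a muscle left out, 39 ratio tests that had passed no longer did. Of these, 35 were at 3 DPI, where the smaller groups cannot reach the threshold, so they say nothing about stability. The other 4 were Col4a1 to Lama4 at 14 DPI without each of its injured muscles in turn (adjusted p = 0.0639, exact permutation test). The same ratio passed without control replicate 2 at 7 DPI (0.28) and 28 DPI (0.27), and without injured replicate 2 at 7 DPI (0.23). With control muscles averaged per rat, a setting added after the data were seen, 0 of 24 ratio tests passed. After adjustment over the 24 tests that design cannot reach the threshold at any time point, so the count says nothing about the ratios. Control muscle is 4 muscles of 2 rats, TPM gives no depth, and several contralateral and running groups hold 2 muscles. The 95% intervals of the graft comparison reach 0.89, so smaller graft differences were not resolved.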

Other observations

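Of the 9 libraries left out of the groups, 8 are of the 4 running rats at 28 DPI for which title and label contradict each other about the muscle. The 4 labelled as uninjured but titled as injured had Col4a1 at 19.7, 16.59, 14.52 and 24.09 TPM, and the 4 labelled as injured but titled as control had 61.51, 72.57, 89.37 and 113.3 TPM. In the same libraries Lama4 was at 4.32, 3.64, 3.14 and 4.0 TPM and at 10.44, 12.02, 11.7 and 16.16 TPM. Lamc1 was at 20.98, 19.36, 18 and 21.23 TPM and at 35.04, 41.53, 40.73 and 47.47 TPM, and Lamb2 at 41.04, 41.06, 45.71 and 36.72 TPM and at 53.74, 60.29, 61.23 and 71.06 TPM. The remaining library carries a day in its label that its rat's further libraries do not share, and had Col4a1 at 27.32, Lama4 at 7.03, Lamc1 at 23.95 and Lamb2 at 44.05 TPM.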
